A study of Mus musculus with 26 samples.

Results

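The visual cycle turns all-trans-retinal, released from rod and cone opsins after light, back into 11-cis-retinal. Most of its enzymes work in the retinal pigment epithelium (RPE), the pigmented sheet behind the photoreceptors, and some of its proteins are also made by Müller glia, the radial glia of the retina. The genes described here were chosen by name. They are Rpe65, Lrat, Rgr, Rdh5, Rdh10, Rlbp1, Stra6, Ttr and Rrh, and they make up 9 of the 37991 Ensembl genes in the table of counts. Each symbol matched 1 gene. No measured value entered the rule that chose these genes, but earlier results of these data were known when it was set.

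Messenger RNA was sequenced from retinas of rd10 mice (B6.CXB1-Pde6brd10/Jrd10), whose rods degenerate because of a mutation in Pde6b, a subunit of the rod phosphodiesterase. Mice were injected intraperitoneally with an inhibitor of a chromatin enzyme, or as controls with saline, from postnatal day 9 (PN9) to PN24, and tissue was collected at PN24. DZNep, an inhibitor of methylation by EZH2, was given in 2 retina libraries against 4 controls, and UNC1999, an EZH2 inhibitor, in 3 against 3. UNC0642, an inhibitor of G9A and GLP, was given in 2 retina libraries against 2 controls, and Romidepsin, a histone deacetylase inhibitor, in 3 against 3. GSK2879552, an LSD1 inhibitor, was compared with controls in 2 against 2 libraries of rods sorted by flow cytometry from rd10 mice that also carried B6.Cg-Tg(Nrl-EGFP)1Asw/J, a transgene in which the rod promoter of Nrl drives EGFP. The methods describe UNC1999 as dissolved in a mixture of DMSO, polyethylene glycol, a Tween detergent and saline and the other inhibitors in saline. Whether the UNC1999 controls received that mixture is not settled by the sources used here, which name both saline and diluent, so an effect of the mixture and of UNC1999 cannot be told apart. The treatment labels of the 3 UNC1999 libraries end in a number that rises by 1 from each to the next, as does the genotype label from the second DZNep control to the last UNC1999 library, and these libraries were grouped by their titles. All groups, controls included, carried the rd10 mutation, so no healthy retina served as a reference. Nothing in the labels states how many animals each library pooled, and the p-values measure the spread between libraries.

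Counted reads ran from 13732959 to 36354094 in the 22 retina libraries and from 7289460 to 19864491 in the 4 libraries of sorted rods. Levels are given as CPM (counts divided by the library total and multiplied up to a common total), scaled by TMM over the 22 retinas and, apart from them, over the 4 sorted rod libraries. A count of 3, taken as the floor, equals 0.0825 to 0.219 CPM in a retina and 0.151 to 0.412 CPM in sorted rods. The tissue labels were checked against markers. The 11 rod markers summed to 8299.8 to 38229.5 CPM in control retinas and to 52280.5 to 80030.8 CPM in sorted rods. The 7 Müller glia markers summed to 3290 to 7060 CPM and 178 to 353 CPM. The 6 cone markers were not lower in sorted rods, at 1075.8 to 3067.8 CPM against 635 to 1888.6 CPM in control retinas. One library stood apart, since DZNep replicate 2 held 59.8 CPM of 6 lens markers against 0.948 to 2.48 CPM in the control retinas. That library also held 216 CPM of 9 pigment cell markers, against 51.4 CPM in DZNep replicate 1.

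The sequence before the transcription start is shown for 4 members. Rpe65 and Rgr are shown because they had the largest fold changes after the EZH2 inhibitors, Lrat because its product feeds Rpe65, and Rlbp1 because it did not move with them. Each run is the 250 bases before the start on the strand of the gene, from RefSeq on build GRCm38.p6, which is not the build of the counts. Capitals mark TAATCC, the core bound by the factors OTX2 and CRX, and CATGTG, an E-box of the kind bound by MITF, each searched on both strands (GGATTA and CACATG on the other).
Rpe65 (chr3:159598931-159599180, plus strand): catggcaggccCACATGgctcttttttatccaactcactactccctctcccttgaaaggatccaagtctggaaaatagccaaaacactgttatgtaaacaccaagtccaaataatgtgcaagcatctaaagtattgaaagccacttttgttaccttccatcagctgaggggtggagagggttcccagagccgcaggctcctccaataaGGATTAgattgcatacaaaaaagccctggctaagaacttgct
Rgr (chr14:37049015-37049264, minus strand): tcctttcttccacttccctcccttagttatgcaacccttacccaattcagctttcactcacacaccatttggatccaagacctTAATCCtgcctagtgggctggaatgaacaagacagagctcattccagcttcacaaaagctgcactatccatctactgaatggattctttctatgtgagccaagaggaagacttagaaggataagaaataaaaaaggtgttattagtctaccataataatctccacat
Lrat (chr3:82903975-82904224, minus strand): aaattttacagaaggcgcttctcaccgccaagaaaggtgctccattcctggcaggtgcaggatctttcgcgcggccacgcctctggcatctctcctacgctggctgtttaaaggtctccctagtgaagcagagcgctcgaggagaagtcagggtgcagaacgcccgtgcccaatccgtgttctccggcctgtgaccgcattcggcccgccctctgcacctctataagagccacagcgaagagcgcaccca
Rlbp1 (chr7:79387028-79387277, minus strand): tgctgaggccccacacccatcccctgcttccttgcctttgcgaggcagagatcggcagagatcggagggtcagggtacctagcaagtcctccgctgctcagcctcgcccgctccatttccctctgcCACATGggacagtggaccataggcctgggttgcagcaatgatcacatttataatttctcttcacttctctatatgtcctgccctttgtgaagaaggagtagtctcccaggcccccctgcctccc

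Rpe65 held TAATCC on the other strand, from base 42 before the start, and CATGTG on the other strand, from base 239. Rgr held TAATCC from base 167, Rlbp1 held CATGTG on the other strand from base 124, and Lrat held neither. Windows of this kind were searched in 7 of the 9 members, with 4 starts for Stra6. None was available for Rdh10, and Ttr was left out of the search. TAATCC stood in 2 of the 7 and in 6.25% of all 32851 windows of 250 bases, and CATGTG in 2 of the 7 and in 12.3%. The E-box CACGTG, in 6.02% of all windows, stood in none of the 7. These matches describe letters in a window and not bound sites.

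In control retinas the members were present at very different levels. Per kilobase of exon, Rlbp1 led with 267 ± 48.2 CPM per kb (SD, n = 12), and Lrat was last with 1.16 ± 0.659 CPM per kb (SD, n = 12). Rlbp1 encodes CRALBP, which carries 11-cis-retinoids in RPE and Müller glia. Between them, from high to low, stood Ttr at 41.0 ± 14.9, Rdh10 at 24.3 ± 5.89, Rgr at 11.8 ± 4.43, Rrh at 10.5 ± 1.86, Rpe65 at 3.65 ± 1.78, Rdh5 at 2.50 ± 0.558 and Stra6 at 1.80 ± 0.300 CPM per kb (SD, n = 12 each). Only Rlbp1 was set apart from its neighbour in this order without overlap over the 12 libraries. Rgr and Rrh could not be ordered, with Rgr above Rrh in 6 of 12 libraries, while Rrh stood above Rpe65 in 12 of 12.

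The spread between control retinas also differed between members. Rpe65 ran from 1.38 to 12.6 CPM with a median of 5.37 CPM, a 9.15-fold range. Lrat ran from 1.60 to 14.1 CPM with a median of 5.61 CPM, an 8.82-fold range. Ttr varied 3.30-fold, Rgr 2.99-fold, and Rlbp1, Rdh10, Rrh, Rdh5 and Stra6 from 1.68-fold to 2.21-fold. The lowest Rpe65 level belonged to UNC0642 control replicate 1 and the highest to UNC1999 control replicate 3.

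Sorted rods held little of most members. No read of Rpe65, the isomerohydrolase that makes 11-cis-retinol, or of Ttr, transthyretin, the carrier of thyroxine and of the retinol-binding protein, was counted in any of the 4 libraries, which allows up to 0.151 to 0.412 CPM. Lrat, the enzyme that esterifies retinol, had 4 reads (0.404 CPM) in GSK2879552 rods replicate 2 and none in the other 3. The mean level in sorted rods came to 4.48% of that in control retinas for Rgr, 7.29% for Rlbp1, 14.9% for Rrh and 22.3% for Rdh10. It came to 40.6% for Stra6 and 55.7% for Rdh5. The rod libraries were made with another kit and scaled apart, so these shares carry no test. Of the 9 pigment cell markers, Tyr, Mlana and Oca2 had no read in any sorted rod library. Mitf had 7 to 30 reads in each, Dct 1 to 25 and Pmel 1 to 21, and few were counted for Tyrp1, Gpr143 and Slc45a2. The 9 summed to 1.82 to 3.22 CPM in sorted rods. The 7 RPE epithelial markers summed to 9.9 to 25.03 CPM there, with 45 to 257 reads of Enpp2 in each library. The source of these reads was not tested.

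**Figure D1:**
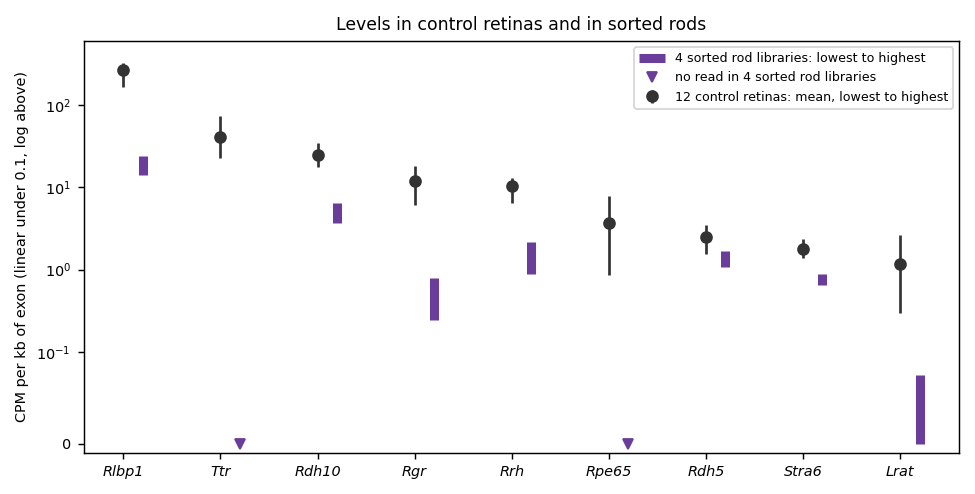
Level of each of the 9 genes in CPM per kilobase of exon (vertical axis, linear under 0.1 and logarithmic above). Black points are means of the 12 control retinas with lines from the lowest to the highest library, and purple bars run from the lowest to the highest of the 4 sorted rod libraries. Rpe65 and Ttr had no read in sorted rods. Rdh5 and Stra6 had the highest mean levels there relative to control retinas, 55.7% and 40.6%.

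Rpe65, Rgr, Stra6, Lrat, Rdh5 and Ttr rose after UNC1999, each from 2.63-fold to 5.16-fold, while Rlbp1, Rrh and Rdh10 did not pass the test. Genes counted as called when the adjusted p was under 0.05 and the level moved by more than 1 on the log2 scale. By that rule 6 of 9 members were called higher and 0 lower, against 0.298% of the 15775 genes tested called higher and 0.0697% lower. At an unadjusted p under 0.05 there were 7 of 9, against 23.6% of genes. All 6 also had every treated library above every control, which held for 14.5% of genes. The median log2 fold change of the 9 was 1.68, against -0.0020 over all genes tested.

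Rpe65 (ENSMUSG00000028174, chr3:159262197-159287763 in NCBIM37) was at 4.40, 6.18 and 12.6 CPM in the controls and at 47.3, 39.0 and 33.8 CPM after UNC1999. The groups did not overlap, and the log2 fold change was 2.37 (standard error 0.333, adjusted p = 0.0345). Lrat (ENSMUSG00000028003, chr3:82696501-82707895) was at 14.1, 10.1 and 7.94 CPM in the controls and at 26.8, 36.2 and 40.1 CPM after UNC1999 (log2 fold change 1.68, standard error 0.225, adjusted p = 0.0290). These enzymes work in succession, Lrat making the retinyl esters that Rpe65 isomerizes.

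Rgr (ENSMUSG00000021804, chr14:37850676-37862150), an opsin that isomerizes all-trans-retinal in light, stood at 27.8, 28.3 and 30.3 CPM in the controls. It reached 139, 119 and 112 CPM after UNC1999, well clear of the controls (adjusted p = 0.000299, log2 fold change 2.09, standard error 0.0924). The 11-cis-retinol dehydrogenase Rdh5 (ENSMUSG00000025350, chr10:128350649-128359944) stood at 8.22, 7.72 and 7.84 CPM and reached 28.4, 25.9 and 25.7 CPM (log2 fold change 1.75, adjusted p = 0.000624). Of the exon bases of Rdh5, 25.6% are shared with Bloc1s1 on the same strand, so reads in those bases could belong to either gene.

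The receptor Stra6 and the carrier Ttr rose as well. Stra6 (ENSMUSG00000032327, chr9:57911595-58001803), the membrane receptor through which cells take up retinol, was at 10.2, 9.03 and 10.1 CPM in the controls and at 41.2, 31.0 and 29.8 CPM after UNC1999 (log2 fold change 1.79, standard error 0.143, adjusted p = 0.00549). Ttr (ENSMUSG00000061808) was at 50.2, 56.2 and 61.0 CPM and at 158, 148 and 136 CPM (log2 fold change 1.40, standard error 0.0849, adjusted p = 0.000893). Neither group overlapped with its controls.

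The other 3 members behaved otherwise. Rlbp1 (ENSMUSG00000039194, chr7:86519757-86531913) was at 358, 484 and 565 CPM in the controls and at 659, 512 and 582 CPM after UNC1999 (log2 fold change 0.31, adjusted p = 0.288). Rrh (ENSMUSG00000028012, chr3:129507326-129525423), peropsin, an opsin of RPE microvilli, was at 13.7, 16.9 and 20.3 CPM and at 23.4, 16.8 and 16.2 CPM (log2 fold change 0.14, adjusted p = 0.693). Rdh10 (ENSMUSG00000025921, chr1:16095855-16123815), a retinol dehydrogenase that also feeds retinoic acid synthesis, was at 139, 121 and 82.0 CPM and at 82.8, 70.1 and 62.2 CPM (log2 fold change -0.68, adjusted p = 0.0905). The groups of these 3 genes overlapped.

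The calls of Rgr, Rdh5 and Ttr after UNC1999 held in all 13 alternatives, whereas those of the other 3 were each lost on leaving out a single library. The adjusted p of Rpe65 stood between 0.0884 and 0.189 without any 1 of the 5 libraries other than control replicate 3, with a log2 fold change of 2.10 to 2.48. That of Lrat was 0.180 without control replicate 2, 0.109 without UNC1999 replicate 2 and 0.139 without UNC1999 replicate 3 (log2 fold changes 1.64, 1.65 and 1.55), and that of Stra6 was 0.0542 without control replicate 2 (1.73). Over all genes the calls were 47 higher and 11 lower, but 4 and 0 without control replicate 2, 5 and 0 without UNC1999 replicate 2, and 286 and 520 without control replicate 3.

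**Figure D2:**
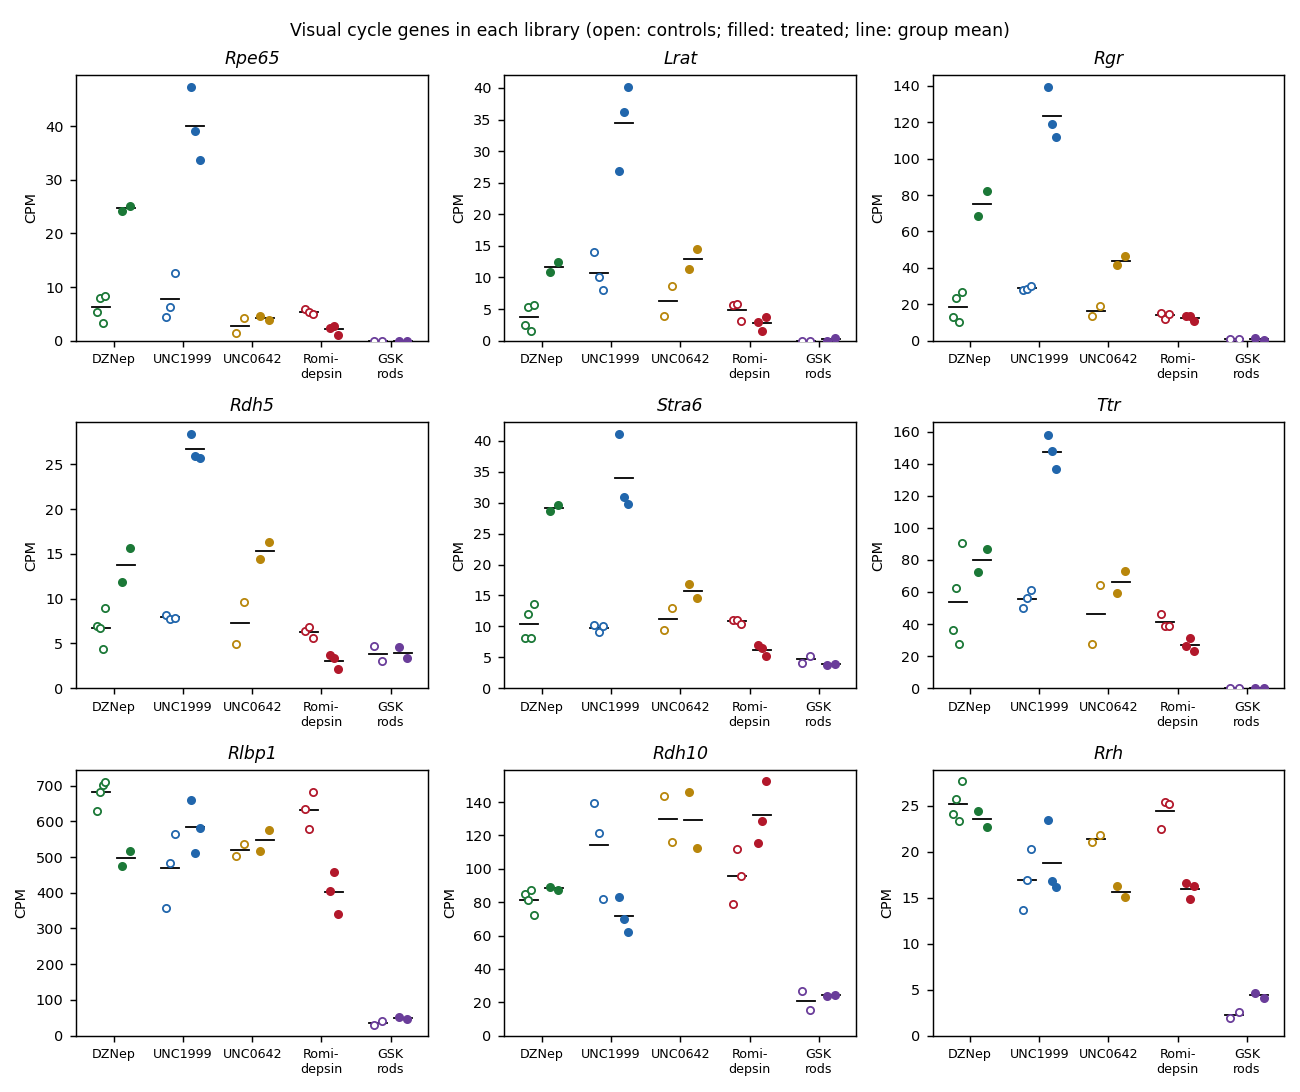
Level of each of the 9 genes in CPM (vertical axes, linear, from 0) in the 26 libraries, by experiment (horizontal axis). Open points are controls, filled points treated libraries and lines group means. For Rpe65, Lrat, Rgr, Rdh5 and Stra6 the DZNep and UNC1999 libraries stand above all of their controls, and all 3 UNC1999 libraries do for Ttr.

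After DZNep, Rpe65, Rgr, Lrat and Stra6 rose by 2.76-fold to 4.02-fold, Rdh5 rose by 1.99-fold, and Rlbp1 fell by 0.47 on the log2 scale. Ttr, Rdh10 and Rrh did not pass the test. By both thresholds 4 of 9 members were called higher and 0 lower, against 1.02% of the 16477 genes tested called higher and 0.686% lower. At an adjusted p under 0.05 alone, 5 members were higher, against 12.9% of genes, and 1 was lower, against 9.72%. At an unadjusted p under 0.05 there were 6 of 9, against 36.5% of genes. Both DZNep libraries lay above every control for 6 members, against 25.5% of genes, and below for 1, against 20.6%. The median log2 fold change of the 9 was 1.00, against -0.00057 over all genes.

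Rpe65 was at 5.41, 8.03, 3.33 and 8.38 CPM in the controls and at 24.3 and 25.2 CPM after DZNep (log2 fold change 1.95, standard error 0.269, adjusted p = 0.00181). Rgr was at 13.0, 23.5, 10.1 and 26.8 CPM and at 68.2 and 82.1 CPM (log2 fold change 2.01, standard error 0.307, adjusted p = 0.00273). Likewise Stra6 was at 8.06, 12.0, 8.07 and 13.5 CPM and at 28.6 and 29.6 CPM (log2 fold change 1.46, standard error 0.192, adjusted p = 0.00152). None of the 3 groups overlapped with its controls.

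Lrat was at 2.52, 5.28, 1.60 and 5.59 CPM in the controls and at 10.8 and 12.5 CPM after DZNep (adjusted p = 0.0187, log2 fold change 1.61, standard error 0.385). The adjusted p of Lrat was 0.0990 without DZNep replicate 1 and 0.0850 without DZNep replicate 2. Rdh5 was at 6.90, 6.72, 4.36 and 8.92 CPM and at 11.8 and 15.6 CPM (log2 fold change 1.00, standard error 0.231, adjusted p = 0.0167), just under the fold threshold. Without DZNep replicate 1 or 2 its adjusted p was 0.0578 or 0.105.

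Ttr showed that controls can differ as widely as treatments. It was at 36.2, 62.4, 27.3 and 90.3 CPM in the 4 controls and at 72.6 and 86.8 CPM after DZNep, so that the groups overlapped (log2 fold change 0.54, standard error 0.384, adjusted p = 0.345). Rlbp1 was at 629, 683, 702 and 711 CPM and at 476 and 518 CPM, below every control (log2 fold change -0.47, standard error 0.0697, adjusted p = 0.00247). Rdh10 had a log2 fold change of 0.11 and Rrh of -0.10 (adjusted p = 0.297 and 0.405).

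UNC0642 left no member past the threshold. With 2 libraries against 2, edgeR called 0 of 9 members and 0% of the 16321 genes tested, while 5 of 9 members had an unadjusted p under 0.05, against 14.7% of genes. The likelihood ratio test and DESeq2 each called 1 member, Rgr. Treated libraries lay above both controls for 4 members, against 27.2% of genes, and below for 1, Rrh, against 24.8%. Of the 7 Müller glia markers 6 lay below both controls (median log2 fold change -0.46), and their part in the level of Rrh was not tested. Rgr was at 13.6 and 19.1 CPM in the controls and at 41.8 and 46.3 CPM after UNC0642 (log2 fold change 1.43, standard error 0.166, unadjusted p = 9.22e-05, adjusted p = 0.224). Rdh5 was at 4.95 and 9.65 CPM and at 14.4 and 16.3 CPM (log2 fold change 1.08, adjusted p = 0.299), and Lrat at 3.91 and 8.60 CPM and at 11.3 and 14.5 CPM (log2 fold change 1.05, adjusted p = 0.314).

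In the same comparison Rpe65 overlapped, with 1.38 and 4.17 CPM in the controls and 4.63 and 3.81 CPM after UNC0642. Control replicate 2 stood above control replicate 1 by 3.02-fold for Rpe65, 2.33-fold for Ttr, 2.2-fold for Lrat and 1.95-fold for Rdh5. Between the same 2 controls Tyrp1, a melanosome enzyme, differed by 3.96-fold, and Dcn, a fibroblast marker, by 21.0-fold. The part of these other transcripts in the result was not tested. Without control replicate 2, Rgr, Rdh5 and Ttr were called (log2 fold changes 1.70, 1.63 and 1.26, adjusted p = 0.00574, 0.0376 and 0.0206), and without control replicate 1 only Rgr was (1.19, adjusted p = 0.00278).

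Romidepsin went with lower levels of most members, but none passed. edgeR called 0 of 9 members, against 0.561% of genes, and 8 of 9 had an unadjusted p under 0.05, against 19.4% of the 16049 genes tested. The likelihood ratio test and DESeq2 each called 2 members, Rpe65 and Rdh5, both lower. Rpe65 was at 5.89, 5.33 and 4.98 CPM in the controls and at 2.37, 2.75 and 1.14 CPM after Romidepsin (log2 fold change -1.39, standard error 0.304, adjusted p = 0.0666). Without Romidepsin replicate 2 its adjusted p was 0.0450.

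The treated libraries lay below every control for 6 members, Rpe65, Rdh5, Rlbp1, Stra6, Ttr and Rrh, against 12.1% of genes. Rdh5 was at 6.36, 6.85 and 5.65 CPM and at 3.69, 3.36 and 2.18 CPM (log2 fold change -1.04, adjusted p = 0.0705). Stra6 was at 11.05, 11.03 and 10.4 CPM and at 7.05, 6.50 and 5.18 CPM (log2 fold change -0.80, adjusted p = 0.0656). The log2 fold changes of Rlbp1, Ttr and Rrh were -0.66, -0.63 and -0.62 (adjusted p = 0.0620, 0.0722 and 0.0656). All 7 Müller glia markers also lay below every control after Romidepsin (median log2 fold change -0.45), and their part in the levels of Rlbp1 and Rrh was not tested.

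Rdh10 was the 1 member whose Romidepsin libraries all lay above the controls, which held for 13.8% of genes, at 115, 129 and 153 CPM against 78.8, 112 and 95.6 CPM (log2 fold change 0.46, adjusted p = 0.164). Rgr was almost level, at 15.3, 12.1 and 14.7 CPM and at 13.3, 13.3 and 10.96 CPM (log2 fold change -0.17, adjusted p = 0.6005). Leaving out 1 library brought the adjusted p of Rlbp1 to 0.0354 and of Ttr to 0.0400 (without Romidepsin replicate 2), and of Stra6 to 0.0485 (without Romidepsin replicate 1), all with a log2 fold change between -1 and 0.

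In sorted rods, GSK2879552 called none of the 6 members that passed the filter on low counts, and 0 of 6 had an unadjusted p under 0.05, against 4.91% of the 14478 genes tested. The likelihood ratio test and DESeq2 also called 0. Rpe65, Lrat and Ttr were not tested. Rrh was at 1.87 and 2.58 CPM in the controls and at 4.68 and 4.14 CPM after GSK2879552 (log2 fold change 0.97, standard error 0.527, adjusted p = 0.987). Rlbp1 was at 31.0 and 42.1 CPM and at 52.7 and 45.9 CPM (log2 fold change 0.43, adjusted p = 0.987). The 7 Müller glia markers summed to 178 and 245 CPM in those controls and to 333 and 353 CPM in the treated libraries, and their part in the 2 differences was not tested. Rdh5, Rdh10, Rgr and Stra6 had log2 fold changes from -0.29 to 0.21.

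**Figure D3:**
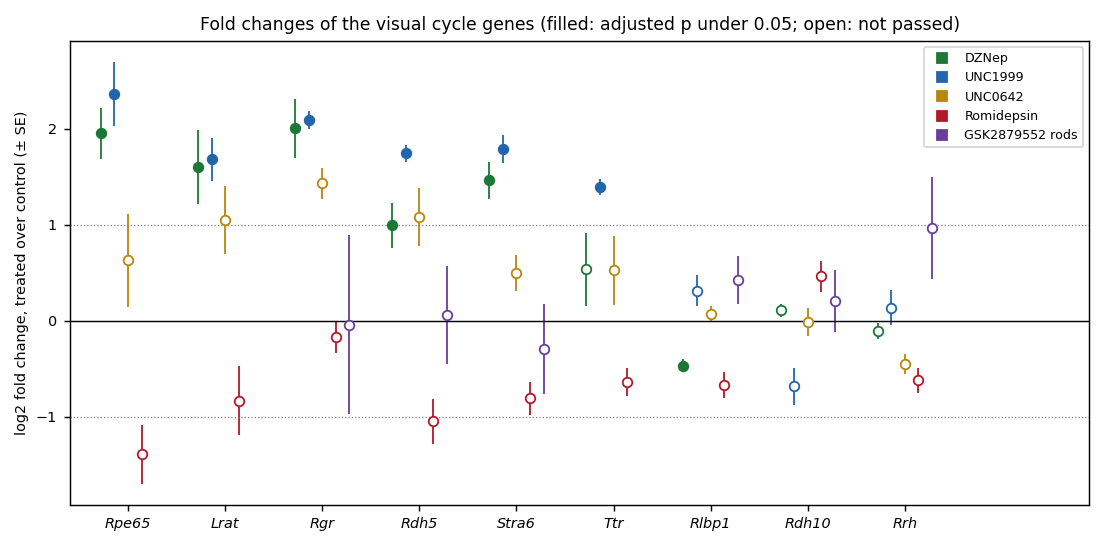
Log2 fold change of treated over control libraries with its standard error (vertical axis) for the 9 genes (horizontal axis) in the 5 comparisons, by colour. Filled points passed an adjusted p of 0.05 and open points did not, and dotted lines mark a log2 fold change of 1 in either direction. The points of DZNep and UNC1999 for Rpe65, Lrat, Rgr, Rdh5 and Stra6 are filled and lie from 1.00 to 2.37, those of Romidepsin lie below 0 for all genes but Rdh10.

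The inhibitors were also compared with each other, each against its own controls, in a single fit of the 22 retinas. UNC1999 and Romidepsin differed for all 9 members at an adjusted p under 0.05, against 5.11% of the 17274 genes tested, and for 7 by more than 1 on the log2 scale, against 2.4%. Rpe65 differed by 3.76 (standard error 0.573, adjusted p = 0.00316), Rdh5 by 2.79, Stra6 by 2.59, Lrat by 2.51, Rgr by 2.26 and Ttr by 2.03, with UNC1999 the higher. Rdh10 differed by -1.14 (adjusted p = 0.0119), with UNC1999 the lower. Rlbp1 differed by 0.97 and Rrh by 0.75. The adjusted p of Rrh stood between 0.0521 and 0.0934 without any 1 of 7 libraries, and that of Ttr was 0.0566 without UNC1999 control replicate 1.

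DZNep and Romidepsin differed for 4 members, against 0.237% of genes. These were Rpe65 by 3.36, Stra6 by 2.28, Rgr by 2.19 and Rdh5 by 2.05 (adjusted p = 0.0220, 0.000809, 0.0220 and 0.0220). Lrat differed by 2.44 (adjusted p = 0.0754). The count fell to 1, Stra6, without DZNep replicate 2, Romidepsin control replicate 1 or Romidepsin replicate 3, and to 2 without Romidepsin control replicate 3.

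Between UNC1999 and DZNep no member passed. edgeR called 0 of 9, against 0.00579% of genes, the likelihood ratio test and DESeq2 called 0 as well, and 3 members had an unadjusted p under 0.05, against 9.45% of genes. Those were Rlbp1 (difference 0.77, 95% interval 0.36 to 1.19, adjusted p = 0.240), Rdh10 (-0.79, interval -1.31 to -0.27, adjusted p = 0.337) and Rdh5 (0.74, interval 0.040 to 1.43, adjusted p = 0.493). For Rpe65 the difference was 0.40 with an interval of -0.70 to 1.51, so that the interval held both no difference and a difference of that size. The UNC1999 libraries form a library series of their own, each inhibitor having its own controls within its series.

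The median log2 fold change of RPE and pigment cell markers had the sign of the members' median after UNC1999, DZNep and Romidepsin. After UNC0642 it did not, at -0.11 against 0.53 for the members. In whole retinas a change in the number of such cells and a change in RNA per cell cannot be told apart. Such cells include RPE left on the retina at dissection, whose part was not tested. After UNC1999, 6 of the 15 tested markers of RPE and pigment cells were called higher and 0 lower, against 0.298% and 0.0697% of genes. Their median log2 fold change was 1.33. Slc6a20a (2.28), Slc16a8 (1.92) and Slc39a12 (1.33), transporters of the RPE, and Dct (1.42), Oca2 (2.00) and Tyr (1.90), melanosome genes, were those called. After DZNep 5 of 16 were called higher, against 1.02% of genes. These were Ermn by 1.58, Slc16a8 by 1.54, Tyr by 1.43, Slc6a20a by 1.16 and Oca2 by 1.15 on the log2 scale. After UNC0642 and Romidepsin 0 were called, against 0% and 0.561% of genes, with medians of -0.11 over 14 and -0.75 over 14.

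The summed level of the 16 markers was 109, 126 and 184 CPM in the controls of UNC1999 and 382, 356 and 303 CPM after it. It was 133 to 206 CPM in the controls of DZNep and 207 and 380 CPM after it. With UNC0642 it was 99.5 and 192 CPM in the controls and 112 and 131 CPM in the treated libraries, and with Romidepsin 173 to 211 CPM and 102 to 125 CPM. The part of these cells in the changes of the members was not tested. Between the 2 DZNep libraries the 7 RPE epithelial markers summed to 155.5 and 164.5 CPM, mostly Enpp2, with single markers from 0.808-fold to 1.75-fold in replicate 2 over replicate 1. Rpe65 and Stra6 were each at 1.04-fold and Rgr at 1.20-fold. The 9 pigment cell markers were at 51.4 and 216 CPM, with Pmel 12.0-fold and Tyrp1 5.97-fold higher in the replicate that also held the lens transcripts, while Mitf differed by 1.06-fold.

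The level of each member was also taken per summed level of the 16 markers, which include Enpp2 at 82.2 to 118 CPM and Dct at 14.9 to 103 CPM in the DZNep experiment. After UNC1999 the log2 fold changes of the 15 tested markers ran from 0.079 to 2.28 with a median of 1.33, against 2.37 for Rpe65. Slc6a20a (2.28), Oca2 (2.00) and Tyr (1.90) were among the highest of them. Relative to the sum, Rpe65 was 2.23-fold and Rgr 1.69-fold higher after UNC1999, and 2.55-fold and 2.69-fold higher after DZNep, with no overlap of groups (exact permutation p = 0.1 with 3 against 3 and 0.0667 with 2 against 4, the smallest these designs allow). For Ttr the ratios were 1.04-fold with UNC1999 (exact permutation p = 0.900) and 0.997-fold with DZNep (p = 1). Stra6 was at 1.36-fold (exact p = 0.2) and 1.75-fold (exact p = 0.0667), Lrat at 1.28-fold with overlap and 2.15-fold without, and Rdh5 at 1.33-fold and 1.27-fold, both with overlap. Rlbp1 was lower, at 0.498-fold and 0.445-fold, and Rrh at 0.436-fold and 0.571-fold, each without overlap. Rdh10 was at 0.252-fold without overlap after UNC1999 and at 0.663-fold with overlap after DZNep. After UNC0642 Rgr was at 3.12-fold, Rdh5 at 2.54-fold, Lrat at 2.52-fold, Rpe65 at 2.00-fold, Ttr at 1.78-fold and Stra6 at 1.63-fold without overlap (exact permutation p = 0.333 each, the smallest that 2 against 2 allows). After Romidepsin Rdh10 was at 2.39-fold and Rgr at 1.53-fold without overlap (exact permutation p = 0.1 each), and the other 7 overlapped. No such ratio can pass 0.05 in these designs.

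**Figure D4:**
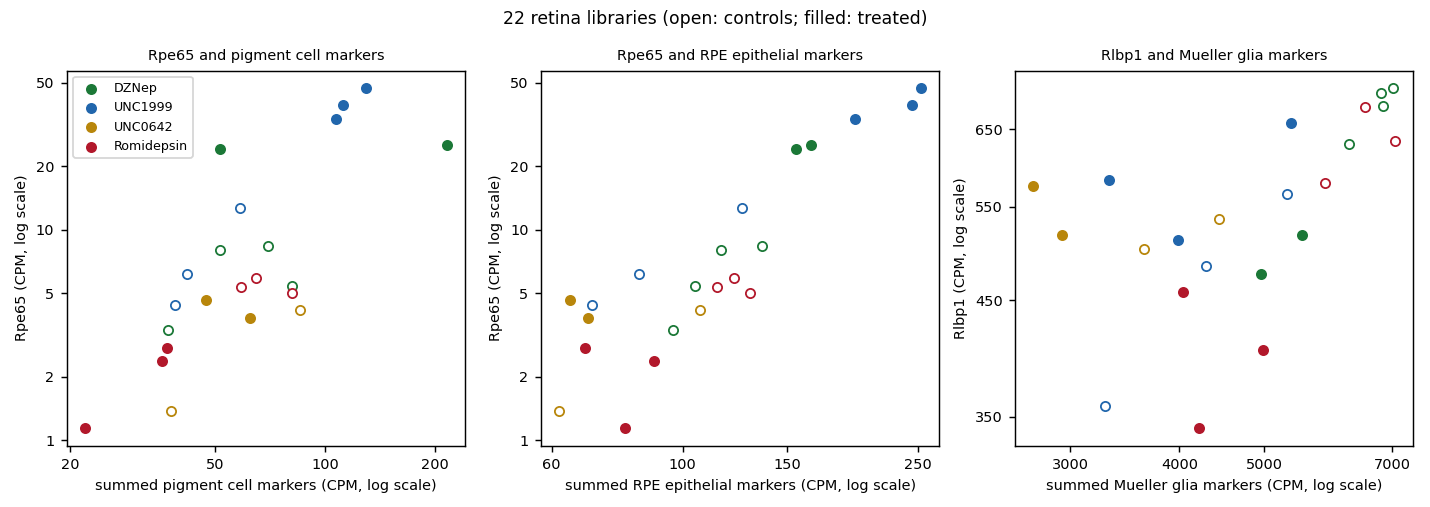
Rpe65 (CPM, log axis) against the summed pigment cell markers and against the summed RPE epithelial markers, and Rlbp1 against the summed Müller glia markers (CPM, log axes), in the 22 retinas. Open points are controls and filled points treated libraries, by colour of the experiment. The 2 DZNep libraries hold about the same Rpe65, 24.3 and 25.2 CPM, and RPE epithelial markers, 155.5 and 164.5 CPM, at 51.4 and 216 CPM of pigment cell markers.

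Over the 12 control retinas, which come from 4 experiments and 2 library series, Rlbp1, Rrh and Rdh10 varied with Müller glia markers. Once group means were removed, Rrh alone of these kept an adjusted permutation p under 0.05, by a permutation that did not allow for the removed means. Of 27 relations of the 9 members with 3 marker scores, 3 passed an adjusted p of 0.05, all with the Müller glia score. Rlbp1 (Pearson's r = 0.916, permutation p = 7e-05, adjusted 0.00189, Spearman's rho = 0.804, permutation p = 0.00256, adjusted 0.0683) and Rrh (r = 0.871, permutation p = 0.00049, adjusted 0.00661, rho = 0.776, permutation p = 0.00506, adjusted 0.0683) were positive. Rdh10 was negative (r = -0.807, permutation p = 0.00175, adjusted 0.0157, rho = -0.727, permutation p = 0.00962, adjusted 0.0866).

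Without the 2 libraries farthest from the median of the Müller glia score, r was 0.842 for Rlbp1, 0.860 for Rrh and -0.575 for Rdh10 (permutation p = 0.0818). Leaving them out also narrows the range of the score. Within the 9 controls of the larger library series r was 0.820, 0.719 and -0.839, each at an adjusted permutation p of 0.0615. Rpe65 had the highest r with the RPE and pigment score, 0.693 (permutation p = 0.0120, adjusted 0.0813, rho = 0.441, permutation p = 0.154), which was 0.321 without the 2 farthest libraries. Of the other members Ttr had an r of 0.626 with that score, Rdh5 0.563, Stra6 0.541, Rlbp1 0.492, Rrh 0.488, Rgr 0.226, Lrat 0.0793 and Rdh10 -0.613, none past an adjusted permutation p of 0.05.

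With the group means removed from all 22 retinas, 6 relations had an adjusted permutation p under 0.05. Deviations within a group sum to 0, while the permutation shuffled all 22 freely. These p-values are therefore too low, and the relations are only described. Rdh5 (r = 0.734, adjusted p = 0.00216), Rpe65 (0.698, 0.00225), Ttr (0.688, 0.00324) and Rgr (0.599, 0.0189) were positive with the RPE and pigment score, and Rrh (0.717, 0.00225) and Rpe65 (0.532, 0.0496) with the Müller glia score, by permutation. Rlbp1 (0.438, adjusted permutation p = 0.0851) and Rdh10 (-0.238, adjusted permutation p = 0.355) did not pass with the Müller glia score.

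Between members, r over the 12 controls was 0.921 for Rlbp1 and Rrh, 0.858 for Rdh5 and Ttr, 0.826 for Rgr and Ttr, and 0.788 for Lrat and Rgr. It was -0.709 for Lrat and Rlbp1 and -0.820 for Rdh10 and Rlbp1. These values are a description over libraries that share scaling and depth.

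Over all 22 retinas, Stra6, Rdh5, Ttr, Rpe65, Rgr and Lrat followed the mean profile of the 9 members with an r of 0.832 to 0.964. Rlbp1 had 0.418, Rrh 0.227 and Rdh10 -0.603. The 10 other genes most like that profile were Cpxm2 (r = 0.956), Tyr (0.936), Tmem27 (0.926), Fap (0.921), Pon1 (0.920), Slc24a5 (0.908), Slc16a8 (0.904), Col8a1 (0.904), Tmem72 (0.889) and Car12 (0.882). Tyr and Slc24a5 act in melanosomes, and Slc16a8 exports lactate from the RPE. Other RPE and pigment markers stood at rank 12 (Gpr143), 14 (Slc6a20a), 15 (Dct), 20 (Oca2) and 35 (Ermn) of 17265 genes, whereas Mitf had an r of 0.346 and Best1 of -0.457.

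The rest of the visual cycle, mostly genes of photoreceptors, moved less. Of 16 other visual cycle genes, 15 were tested after DZNep. Of these 2 were called higher, against 1.02% of genes. At an adjusted p under 0.05, 6 were higher, against 12.9%, and 0 were lower, against 9.72%. Rdh12, a photoreceptor retinol dehydrogenase, had a log2 fold change of 1.09 (adjusted p = 0.00115) and Abca4, which flips retinal conjugates across disc membranes, of 1.04 (adjusted p = 0.00125). After UNC1999 Abca4 was the 1 of 15 called (1.01, adjusted p = 0.0468), against 0.298% of genes called higher. After UNC0642, Romidepsin and in sorted rods 0 of 15, 0 of 15 and 0 of 13 were called by edgeR. The shares of all genes called were 0%, 0.561% and 0%. At an unadjusted p under 0.05 there were 1, 3 and 0, against 14.7%, 19.4% and 4.91% of genes. Abca4 was at 1249 and 1270 CPM after DZNep against 483 to 726 CPM in its controls.

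Of 14 retinoic acid genes 13 were tested in each retina comparison and 0 were called by edgeR. At an unadjusted p under 0.05 there were 3 of 13 after DZNep, against 36.5% of all genes, 1 after UNC1999, against 23.6%, 1 after UNC0642, against 14.7%, and 7 after Romidepsin, against 19.4%. Rara and Rxra, receptor genes named after their values were seen, were higher after DZNep at an adjusted p under 0.05, by 0.32 and 0.46 on the log2 scale.

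Other cell types moved in the same libraries. After DZNep 9 of 11 rod markers were called higher, against 1.02% of genes, led by Nrl (1.40), Pde6b (1.31) and Prph2 (1.19). All 7 Müller glia markers were lower at an adjusted p under 0.05, against 9.72% of genes, by 0.20 to 0.66 on the log2 scale. After UNC1999 0 of 11 rod markers were called by edgeR, with 9 at an unadjusted p under 0.05, against 23.6% of genes. Their median log2 fold change was 0.95. Of the 6 cone, 6 microglia and 3 endothelium markers edgeR called 0 in any of the 4 retina comparisons. All 6 microglia markers had an unadjusted p under 0.05 after UNC1999, against 23.6% of genes (median log2 fold change -1.10). Of 6 cone markers 5 lay below every control after Romidepsin, against 12.1% of genes (median -0.77). There 5 also had an unadjusted p under 0.05, against 19.4%. At an adjusted p under 0.05, 2 cone markers and 1 endothelium marker were lower after DZNep, against 9.72% of genes. Of the lens markers Cryaa and Crybb2 were called after DZNep (5.78 and 3.84), at 37.9 and 14.3 CPM in replicate 2 and 0.449 and 0.209 CPM in replicate 1. Of the fibroblast markers Col1a1 was called after Romidepsin (1.80).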

How the data were processed

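Processed data of 26 libraries of rd10 retinas and sorted rods were analysed. According to the labels and the methods of the authors, polyA RNA was sequenced with a stranded kit (sorted rods with another kit), trimming was done by BBDuk, HISAT2 2.2.1 placed the reads on NCBIM37 and genes were counted with HTSeq 0.11.2 on Ensembl release 67. Whether counting used strand is not given in the sources used here. The deposited values are raw counts of 37991 genes, of which 37205 have a symbol.

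Genes were filtered with filterByExpr, normalized by TMM and tested by the quasi-likelihood F test of edgeR 4.0.16 (R 4.3.3) on the whole table of each comparison, with Benjamini-Hochberg adjustment over all genes tested. The likelihood ratio test of the authors was an alternative, with DESeq2 1.42.0, RLE normalization, other filters, no fold threshold, a replicate block, all 22 retinas in one fit and leaving out each library. Marker scores are means of log2 CPM (prior count 2), with 100000 permutations. Positions and exon lengths come from GENCODE M1 on NCBIM37. The members, gene lists and tests were chosen with earlier results of these data known. Genes named are the members, up to 3 called genes of each list and comparison, and the 10 most similar genes. Pmel, Tyrp1, Dcn, Mlana and others outside that rule were named after their values were seen.

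Tests were checked on simulated data with 100 genes changed at each size. At a log2 change of 1.5, 89 of 100 were recovered for DZNep (16289 genes) and 47 of 100 for sorted rods (14083 genes). No 2 replicates were copies, with a chi-square per gene of at least 3.72. Counting intervals and floors cover counting error only.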

Additional observations from a re-analysis of the deposited data

Results flagged for a closer look

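Of 21 values (9 members and 12 summed lists) in the 4 DZNep controls, the one group large enough for the check, 1 was set apart. The summed choroid and sclera fibroblast markers stood at 122 CPM in DZNep control replicate 1, against 56.9 CPM in the lowest and a median of 61.7 CPM, a gap of 0.860 of the range of the group. Chance sets apart about 1 in 20 such groups. No member was set apart. Without that library 4 members were called after DZNep, as with it.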

How the results depend on the processing

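Over all genes, UNC1999 called 47 higher and 11 lower, against 174 and 295 by the likelihood ratio test, 140 and 261 by DESeq2 and 159 and 278 in one fit of 22 retinas. Romidepsin called 65 and 25, against 281 and 217, 226 and 170, and 312 and 208. For the members, 881 of 994 alternative fits kept the direction and the side of an adjusted p of 0.05, 41 lost it, 54 gained it and 18 changed sign. The causes were not tested. After UNC0642, where 0 members were called, the likelihood ratio test and DESeq2 called 1 and the fit without a filter on low counts 3. After Romidepsin, the likelihood ratio test, DESeq2, no filter and all 22 retinas in one fit called 2 in place of 0. Leaving out 1 library gave 3 to 6 calls after UNC1999, 0 to 3 after UNC0642, 0 to 1 after Romidepsin and 1 to 5 for DZNep less Romidepsin. Where that left a single library in an arm, it was assumed to vary like the other libraries.

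Same-numbered libraries were not paired (correlations of their deviations from -0.279 to 0.230), and not every library correlated best with its own number. With a replicate block, 4 members were called after DZNep, 4 after UNC1999, 3 after UNC0642, 0 after Romidepsin and in sorted rods, 7 for UNC1999 less Romidepsin, 2 for DZNep less Romidepsin and 0 for UNC1999 less DZNep, where Rgr was at -0.00095.

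In place of 3 relations with marker scores, rho gave 0, the 9 controls of the larger series 0 and deviations of the 22 retinas from group means 6, of which Rrh with the Müller glia score was the 1 relation shared with the 3. The 6 rest on permutation p-values that are too low, since the removed means were not allowed for.

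Sign changes on leaving out a library were these, as ranges of log2 values. After UNC1999 Rrh ran from -0.047 to 0.28. After UNC0642 Rdh10 ran from -0.22 to 0.17 and Rlbp1 from -0.0053 to 0.14. In sorted rods Rgr ran from -0.18 to 0.51, Rdh5 from -0.23 to 0.38 and Rdh10 from -0.14 to 0.63. For UNC1999 less DZNep Lrat ran from -0.20 to 0.32 and Rgr from -0.17 to 0.27.

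Of 270 alternative ratios of member to RPE marker level, 21 changed sign. On leaving out a library Ttr ran from -0.32 to 0.31 with DZNep and from -0.091 to 0.15 with UNC1999, and Lrat from -0.054 to 0.74 with UNC1999. With UNC0642 Rdh10 ran from -0.45 to 0.81, Rlbp1 from -0.16 to 0.69 and Rrh from -0.71 to 0.19. With Romidepsin Lrat ran from -0.46 to 0.23, Rlbp1 from -0.017 to 0.20 and Stra6 from -0.13 to 0.052. With epithelial markers alone Ttr was at 0.20 with DZNep and, with Romidepsin, Rlbp1 at -0.033 and Ttr at -0.0026. With equal weights, chosen after seeing the data, Rdh10 was at -0.00872 with UNC0642, and Rlbp1 at -0.039 and Ttr at -0.00727 with Romidepsin.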
